A study of Mus musculus with 4 samples.

Results

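Large intestinal stromal cells that carried a Hoxa13 transcript were compared with those that did not, in a single-cell RNA sequencing experiment on the gut mesenchyme of the mouse embryo. Cells were chosen by a rule that read their own counts. Barcodes of the 2 large intestine (LI) libraries were kept if they held 3000 or more unique molecular identifiers (UMIs, each standing for 1 captured RNA molecule), 1000 or more genes, less than 10% mitochondrial UMIs, and 0 UMIs of Upk3b (mesothelium), Sox10 (enteric glia and progenitors) and Prph (neurons). Of 8819 kept LI cells, 545 had 1 or more Hoxa13 UMIs and are called Hoxa13-positive here, and 8274 had 0 and are called Hoxa13-negative. With the 2 small intestine (SI) libraries the whole series held 19440 kept cells. Hoxa13 therefore selected the groups, and its values are described but not tested. Upk3b, Sox10 and Prph were likewise left out of every count.

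All 4 libraries came from untreated embryos at stage E12.5 of the strain labelled EYFP (C57BL/6), sired by mice that carry a yellow fluorescent protein switched on by a Cre line which the study's methods do not name, so that the YFP gate took whichever cells that line marks. Small and large intestine were dissected apart, the cecum going with the LI, in 2 independent experiments that each pooled 3 to 5 embryos. Sorting took live cells that were CD45-, Ter119-, CD31-, EpCAM-, Itgb1+ and YFP+, which removes most immune, erythroid, endothelial and epithelial cells but not muscle, mesothelial or neural cells. Some labels speak of adult lamina propria, while the titles and the protocol give the embryonic stage. No label gives the position of a cell along the LI. The kit read either the 3′ or the 5′ end of the transcripts, and the sources used here do not say which for which library. LI replicate 1 stood apart by its depth, its kept cells having a median of 4539 UMIs against 8430 to 8893 in the other 3 libraries. Pairs of libraries shared 8 to 15 barcodes.

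Hox genes lie in 4 clusters, and along the gut and body axis the genes of low paralogue number are used anteriorly and those of high number posteriorly. Hoxa13 and its relative Hoxd13 are the last genes of their clusters and are known for patterning the most distal hindgut, the anorectal region, the genital bud and the digits. Their proteins bind DNA with the help of cofactors of the TALE class, and posterior Hox proteins are known to dominate over more anterior ones where they overlap. The mesenchyme around the gut tube is also known to exchange hedgehog, BMP, WNT, FGF and retinoic acid signals with the epithelium while it forms muscle and fibroblast layers.

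Hoxa13 (ENSMUSG00000038203) lies on chromosome 6, 52257694 to 52260880, on the minus strand of mm10. It was found in 252 of 4736 kept cells of LI replicate 1, which is 5.32% (95% Wilson interval 4.72 to 6.00), and in 293 of 4083 cells of LI replicate 2, which is 7.18% (6.42 to 8.01). In the SI it was found in 4 of 4709 cells (0.0849%) and 4 of 5912 cells (0.0677%). Both LI libraries stood above the SI, whose kept cells had medians of 8893 and 8430 UMIs against 4539 and 8871 in the LI. Free RNA within the LI suspensions can add single UMIs to cells that do not express the gene. Intervals of this kind cover counting error only.

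Most positive cells held a single Hoxa13 molecule. In LI replicate 1, 213 cells had 1 UMI, 32 had 2, 6 had 3 and 1 had 4. In LI replicate 2, 213 cells had 1 UMI, 56 had 2, 15 had 3, 6 had 4 and 3 had 5. Detection moved with depth. Positive cells had a median of 5885.5 and 13611 UMIs in replicates 1 and 2, and negative cells 4481.5 and 8619.5. When every cell was thinned at random to 3000 UMIs, 140 and 79 cells still showed Hoxa13, or 2.96% and 1.93%. A negative cell may therefore be a cell whose Hoxa13 RNA was not captured, and the shares are not shares of expressing cells.

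The cells just inside and just outside the rule differed by 1 UMI. In LI replicate 1, Sfrp1 was at 409.6 CPM (a gene's UMIs scaled to a common library total, over the summed cells) in cells with 1 Hoxa13 UMI and at 91.8 CPM in cells with 0, and Hoxd13 was at 13.4 and 3.19 CPM. In LI replicate 2 the same pairs were 281.6 and 74.9 CPM for Sfrp1 and 15.6 and 2.08 CPM for Hoxd13. Cells with 2 or more Hoxa13 UMIs were at 545.9 and 387.8 CPM for Sfrp1 and at 22.4 and 20.8 CPM for Hoxd13. For Hoxd13 these levels rest on 6 UMIs in 39 cells of replicate 1 and 29 UMIs in 80 cells of replicate 2. Hoxd9 ran the other way, at 191.6, 41.0 and 22.4 CPM over cells with 0, 1 and 2 or more Hoxa13 UMIs in replicate 1 and at 137.2, 50.03 and 23.0 CPM in replicate 2. Other genes were not ordered in this way in both libraries. Over the same cells Hoxa11 was at 52.7, 72.2 and 37.4 CPM in replicate 1 and at 49.5, 64.3 and 68.2 CPM in replicate 2. Hoxd12 was at 2.70, 4.47 and 22.4 CPM in replicate 1 and at 2.00, 4.31 and 2.87 CPM in replicate 2.

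Hoxa13-positive cells gathered in a single cluster of LI cells. Kept LI cells were clustered without any Hox gene and without the patterning and signalling genes listed for this comparison. Cluster 3, of 1243 cells and led by Sfrp1, Isl2 and Pf4, held 73.0% of the positive cells of replicate 1 and 67.2% of those of replicate 2, against 12.8% and 7.65% of the negative cells. In it 24.3% and 40.5% of cells were positive, or 13.6% and 11.1% after thinning. Cluster 0, the largest with 3459 cells and led by Itga4 and Epha5, had 2.42% and 4.69% positive cells. Cluster 1, with Pitx1 among its leading genes, had 0.346% and 0.751%, and cluster 2, smooth muscle cell-like (SMC-like) by Myh11, Mylk and Acta2 though the fibroblast gene Lum was also among its leading genes, had 0.327% and 0.752%. Clusters 0, 1, 3, 4 and 9 had no listed marker of any cell type among their 10 leading genes and 3 or more fibroblast markers in at least 10% of cells, and are called the unmarked clusters. The fibroblast markers do not set them apart, since 7 reached that share in cluster 3 and 8 in the SMC-like cluster. A mesothelial-like cluster of 112 cells gave 9 positive of 93 cells in replicate 1 and 0 of 19 in replicate 2.

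**Figure D1:**
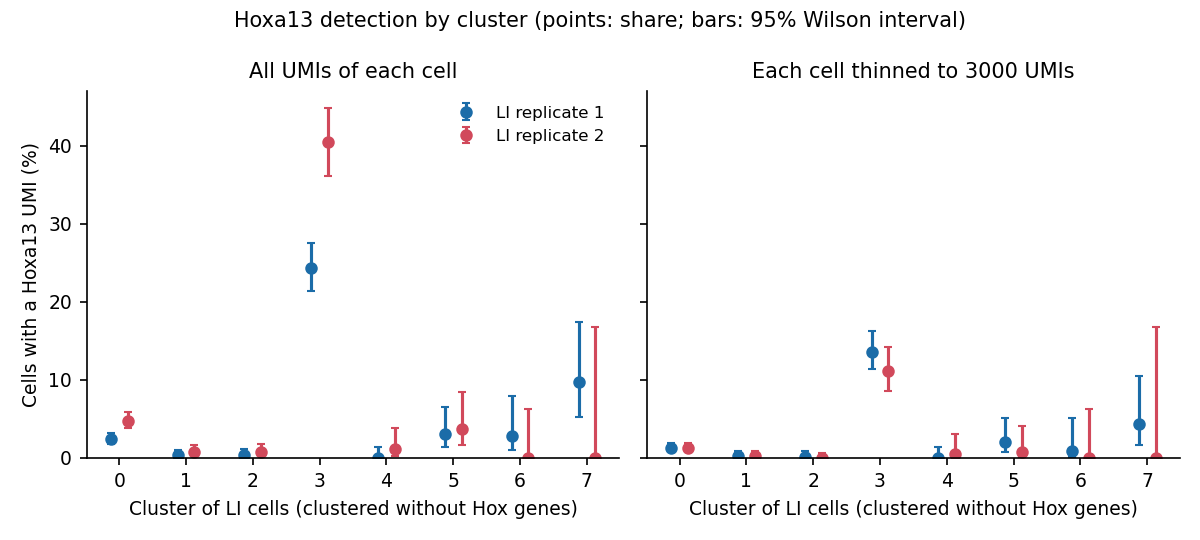
Share of cells with a Hoxa13 UMI (y axis, %) in each cluster of LI cells with 100 or more cells (x axis), with all UMIs (left) and with each cell thinned to 3000 UMIs (right). Points are the 2 LI libraries and bars their 95% Wilson intervals. Cluster 3 stands above the larger clusters in both libraries, at 24.3% and 40.5% with all UMIs and at 13.6% and 11.1% after thinning, where the intervals of the 2 libraries overlap.

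The main test summed the raw UMIs of positive and of negative cells within each library, which gave 4 sums, and compared them by edgeR's quasi-likelihood test, blocking on library. Among the 13002 genes it could test, 1131 were higher in Hoxa13-positive cells at a Benjamini-Hochberg adjusted p under 0.05, which is 8.7%, and 934 were lower, which is 7.18%, so that 15.9% of genes were called. Since positive cells were deeper, the test was repeated against the 5 negative cells of nearest UMI total for each positive cell. This comparison was chosen after seeing the data, and brought the median depth of negative cells to 5880.5 and 12528 UMIs. It then called 12.4% of 11980 genes, 737 higher (6.15%) and 745 lower (6.22%). With cells thinned and classed again it called 1.92% of 12036 genes, 99 higher (0.823%) and 132 lower (1.1%), with 140 and 79 positive cells left. Matching each positive cell to a negative cell of its own cluster and depth left 0.384% of 10687 genes called, 14 higher (0.131%) and 27 lower (0.253%). Clusters were built from the same cells' expression, so that this last comparison also removes whatever difference the clusters carry. Of the gene lists described below, those with a call in it were mitosis (5 higher), imprinted and insulin-like growth factor genes (3 lower), Hox group 9, matrix and stress genes (2 lower each), and Hox groups 5 to 8, BMP ligands and antagonists and smooth muscle genes (1 lower each).

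The block carried much of the precision. Without it the same sums gave 0 calls in edgeR, with 827 genes at an unadjusted p under 0.05, and the fit rests on 2 libraries with 1 residual degree of freedom. Fitted on a single LI library, whose sums were then assumed to vary like the 2 SI libraries, the test called 145 genes without LI replicate 1 and 26 without LI replicate 2. DESeq2 called 592 genes. Counts of called genes in the lists below stand beside 8.7% higher and 7.18% lower over all genes tested. In each result below CPM values are given for replicates 1 and 2 in that order, log2 fold changes (positive over negative) carry their standard error, and fewer cells that express a gene cannot be told apart from less RNA per cell in such sums.

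Among the posterior Hox genes, Hoxd13, Hoxd12 and Hoxa11 were higher in the positive cells, and Hoxd11, Hoxd10 and Hoxc10 were lower. Hoxd13, the paralogue of Hoxa13 (chromosome 2, 74668310 to 74671599, plus strand), was at 14.9 and 17.2 CPM in positive cells and at 3.19 and 2.08 CPM in negative cells (log2 fold change 2.81 ± 0.26, adjusted p = 1.11e-07). Hoxd12 was at 7.45 and 3.85 CPM, from 12 and 17 UMIs, against 2.70 and 2.00 CPM (1.24 ± 0.36, adjusted p = 0.0223). Hoxa11, which starts 15.1 kb from the Hoxa13 start, was at 66.4 and 65.5 CPM against 52.7 and 49.5 CPM (0.46 ± 0.09, adjusted p = 0.00133). In all 3 genes both libraries gave positive cells the higher level. All 3 stayed called against depth-matched negative cells. In thinned cells the log2 fold changes were 2.21, 2.34 and 0.24 and none was called, and against cells of the same cluster and depth they were 0.41, -0.27 and 0.28, again with none called. Among the unmarked clusters alone, where cluster 3 holds most positive cells and clusters 0 and 1 most negative cells, Hoxd12 and Hoxa11 lost the call, at 0.84 and 0.20 (adjusted p = 0.117 and 0.134). With 2 or more Hoxa13 UMIs Hoxd13 stayed called (3.25), but Hoxd12 (1.65, adjusted p = 0.224) and Hoxa11 (0.35, adjusted p = 0.311) did not. With cells classed by Hoxd13, Hoxd12 was called higher (2.78) and Hoxa11 was at -0.23 and not called (adjusted p = 0.536).

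Groups 10 and 11 split. Hoxd11 was lower, at 179 and 170 CPM against 248 and 214 CPM (log2 fold change -0.31 ± 0.07, adjusted p = 0.00365), as was Hoxd10, at 48.4 and 59.2 CPM against 116 and 137 CPM (-1.15 ± 0.09, adjusted p = 5.49e-09). Hoxc10 was at 34.8 and 34.2 CPM against 105 and 84.8 CPM (-1.33 ± 0.11, adjusted p = 9.15e-09), and shares exon sequence with an annotated transcript of Hoxc5 on the same strand, so that its count is less certain. Hoxa10 did not pass the test, at 136 and 207 CPM in positive and 176 and 233 CPM in negative cells (-0.16 ± 0.07, adjusted p = 0.138), but it was called lower among the unmarked clusters alone (-0.45, adjusted p = 0.000236), without neural-like and mesothelial-like clusters (-0.21, adjusted p = 0.00689) and with cells classed by Hoxd13 (-0.62, adjusted p = 3.47e-07), while against depth-matched cells it was at -0.0020. Hoxc11 did not pass, at 9.94 and 8.39 CPM against 8.54 and 8.76 CPM (0.11 ± 0.23, adjusted p = 0.821). Hoxd11, Hoxd10 and Hoxc10 stayed lower in thinned and in depth-matched cells, but lost the call against cells of the same cluster and depth, at -0.18, -0.25 and -0.23, and Hoxd11 was at 0.17 and not called among G1 cells. Among SMC-like cells alone, with 7 positive cells, Hoxd11 was called higher (4.49). Besides Hoxa13, 8 of the 11 genes of groups 10 to 13 could be tested, of which 3 were higher and 3 lower, with a median log2 fold change of -0.03 against 0.01 over all genes. Hoxb13 and Hoxc12 had 0 UMIs in every LI sum, and Hoxc13 was at 0.0277 CPM in the negative cells of replicate 2 and at 0 in the other LI sums.

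In Hox group 9, whose genes lie next to group 10 on the anterior side, 3 of 4 genes were lower, with a median log2 fold change of -1.28. Hoxd9, at 37.9 and 41.5 CPM in positive cells, was at 192 and 137 CPM in negative cells (log2 fold change -1.85 ± 0.11, adjusted p = 1.12e-10). Hoxc9 was at 13.04 and 9.75 CPM against 65.1 and 49.1 CPM (-2.25 ± 0.14, adjusted p = 3.27e-10). Hoxa9 was at 66.4 and 78.7 CPM against 140 and 122 CPM (-0.71 ± 0.09, adjusted p = 1.61e-05). These 3 genes were lower in both libraries, in thinned cells and against depth-matched cells, and Hoxd9 and Hoxc9 remained lower against cells of the same cluster and depth (adjusted p = 0.00441 and 0.00608). Hoxb9 was the exception, at 6.83 and 7.71 CPM against 8.10 and 5.76 CPM (0.28 ± 0.27, adjusted p = 0.556).

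More anterior Hox genes were lower as well. Of the 11 genes of groups 5 to 8, 10 were lower and 0 higher, with a median log2 fold change of -1.22. The Hoxc genes had the deepest drops. Hoxc8 was at 6.83 and 8.16 CPM in positive and 34.1 and 64.5 CPM in negative cells (-2.75 ± 0.17, adjusted p = 1.29e-10), and Hoxc6 at 3.11 and 4.53 CPM against 25.8 and 36.1 CPM (-2.92 ± 0.21, adjusted p = 1.42e-09). Hoxa5, known for its part in stomach and lung mesenchyme, was at 6.83 and 17.7 CPM against 30.1 and 46.6 CPM (-1.45 ± 0.15, adjusted p = 6.91e-07). Hoxc5 had only 3 UMIs in positive cells, 8.11-fold less per UMI than in negative cells with a counting interval of 2.74 to 39.6. Hoxb7 did not pass, with a log2 fold change of -0.14 ± 0.30. In thinned cells 3 of these 11 genes stayed called, namely Hoxc8, Hoxc6 and Hoxa5, and of the 9 that could be tested against cells of the same cluster Hoxc8 alone did (adjusted p = 0.000176).

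In groups 1 to 4, 5 of 11 genes tested were lower and 0 higher, with a median of -1.15. Hoxd4 was at 19.3 and 17.5 CPM against 51.9 and 52.0 CPM (log2 fold change -1.45 ± 0.13, adjusted p = 5.36e-08), and it shares exons with Hoxd3 on the same strand. Hoxc4 was at 1.24 and 3.17 CPM against 11.1 and 12.3 CPM (-2.10 ± 0.31, adjusted p = 4.78e-05) and Hoxa3 at 3.73 and 8.84 CPM against 11.0 and 17.1 CPM (-0.98 ± 0.22, adjusted p = 0.00296). In thinned cells Hoxd4 alone of 10 genes was called, while Hoxc4 and Hoxa3 had log2 fold changes of -1.93 and -1.14 there (adjusted p = 0.447 and 0.679), and 0 of 7 were in edgeR against cells of the same cluster and depth. The Hoxb genes of these groups did not pass, with log2 fold changes of 0.17 ± 0.10 for Hoxb2, 0.03 ± 0.13 for Hoxb3 and -0.15 ± 0.11 for Hoxb4. Among the unmarked clusters alone, Hoxb2 and Hoxb4 were instead higher in positive cells, with log2 fold changes of 0.60 (adjusted p = 0.00566) and 0.71 (adjusted p = 0.00177).

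**Figure D2:**
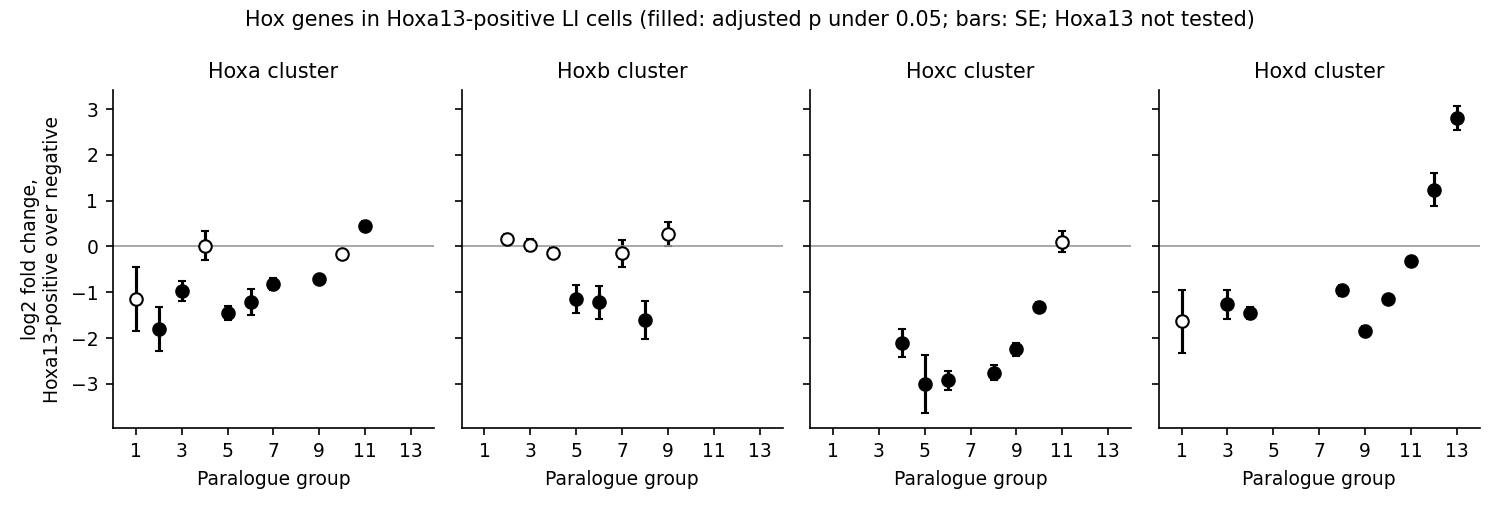
Log2 fold change of each Hox gene tested, Hoxa13-positive over Hoxa13-negative LI cells (y axis), by paralogue group (x axis) in each of the 4 clusters. Bars are standard errors and filled points passed the test. In the Hoxd cluster values run from -1.85 at group 9 up to 2.81 at group 13, in the Hoxc cluster from its lowest values at groups 5 and 6 up to 0.11 at group 11, and in the Hoxb cluster 5 of 8 genes were not called.

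The SI gives a reference for these levels, without a test. Hoxc8 was at 77.2 and 88.1 CPM in the SI libraries, so that it fell from the SI over the negative to the positive LI cells, and Hoxc6, at 44.6 and 50.8 CPM in the SI, had the same order. Hoxd9 was at 0.201 and 2.31 CPM in the SI and was thus highest in the Hoxa13-negative LI cells. Hoxd13 was at 0.0224 and 0.0182 CPM in the SI. Of the 8 neighbouring and noncoding genes tested, 0 were called in edgeR and 0 had an unadjusted p under 0.05. Over all genes 15.9% were called, so that 0 of 8 is near that share. In thinned and in depth-matched cells 0 of 7 were called. The noncoding gene 2600014E21Rik, not on that list, lies on chromosome 2 (75138843 to 75317820), beyond Mtx2 (74825803 to 74878431). It was at 0.134 and 0.0364 CPM in the SI, and in the LI it was lower in positive cells, as given below. Hibadh and Tax1bp1, which flank the Hoxa cluster, had log2 fold changes of 0.15 ± 0.08 and 0.02 ± 0.06, and Mtx2 and Atf2, on the Hoxd side, of 0.01 ± 0.08 and -0.01 ± 0.09.

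**Figure D3:**
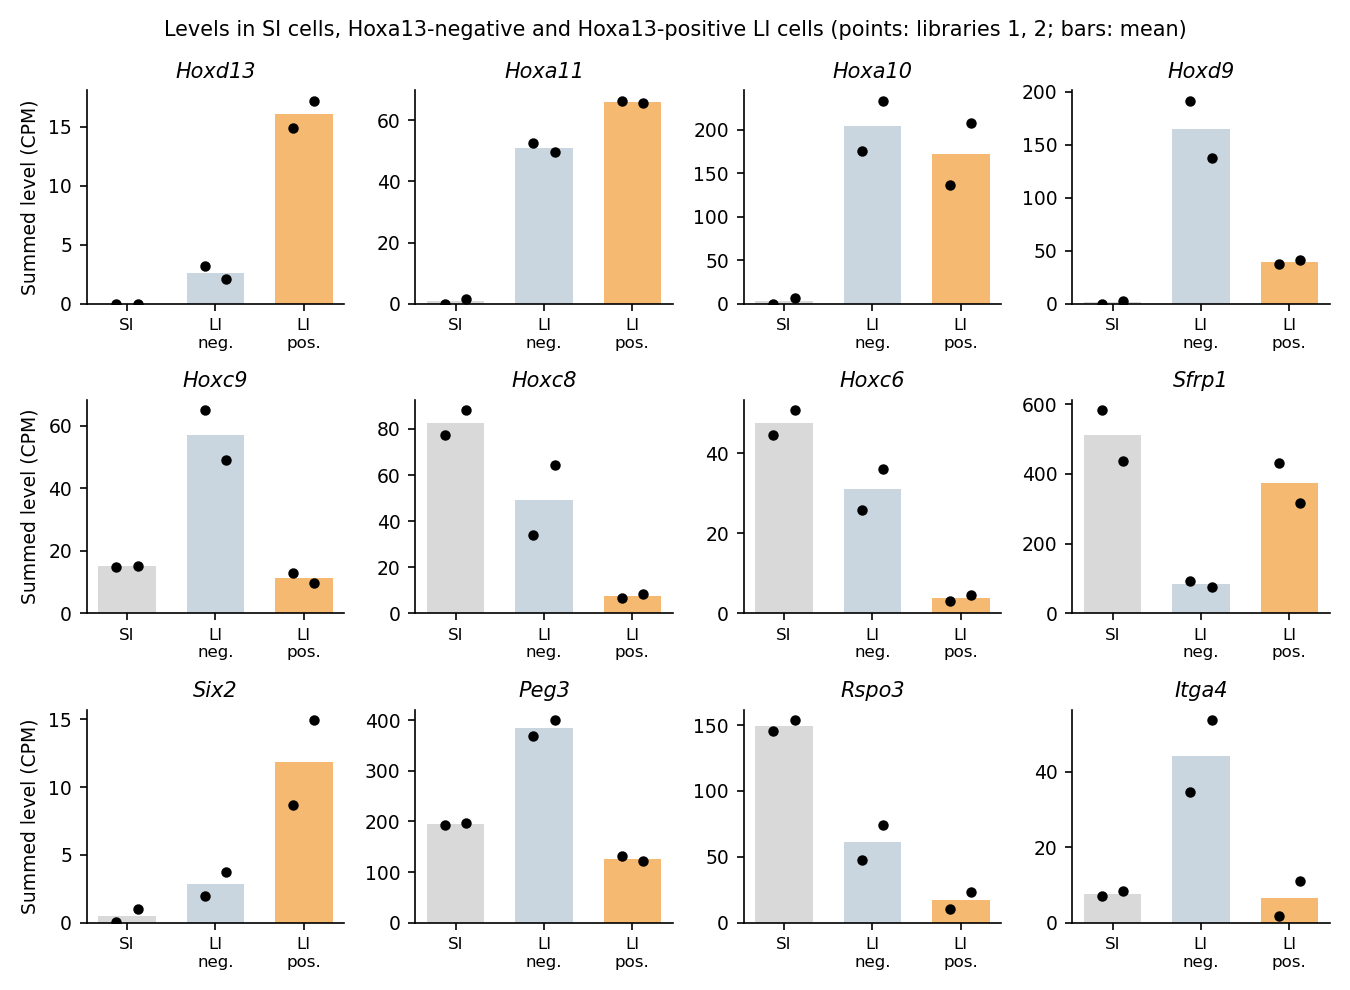
Summed level (y axis, CPM) of 12 genes in SI cells, Hoxa13-negative LI cells and Hoxa13-positive LI cells (x axis). Points are libraries 1 and 2 of each group and bars their mean. Hoxd13 and Six2 are highest in positive cells, Hoxd9, Hoxc9, Itga4 and Peg3 in negative LI cells, and Hoxc8, Hoxc6 and Rspo3 in SI cells, while Sfrp1 is low in negative LI cells only.

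Single Hox genes were also read cell by cell, with every cell thinned to 3000 UMIs so that depth was equal. Hoxd9 was found in 11.5% of positive cells (Wilson interval 8.13 to 16.0) and 39.2% of negative cells (37.8 to 40.6) of replicate 1, and in 10.2% (7.27 to 14.2) and 31.2% (29.8 to 32.7) in replicate 2. Without thinning the shares were 17.5% and 48.7%, and 29.0% and 54.0%. Thinned SI cells showed Hoxd9 in 0.0425% and 0.609%, so that positive LI cells still lay above the SI. Hoxd13 was found in 3.17% (1.62 to 6.14) and 0.624% (0.432 to 0.901) of positive and negative cells of replicate 1, and in 4.44% (2.61 to 7.44) and 0.369% (0.220 to 0.619) in replicate 2. Most Hoxa13-positive cells thus showed no Hoxd13 molecule at this depth, and unthinned 23 of 252 and 38 of 293 did. Thinned positive and negative cells showed Hoxa11 in 15.5% and 13.7% in replicate 1 and in 21.2% and 13.3% in replicate 2. For Hoxd12 the shares were 2.78% and 0.647%, and 1.02% and 0.712%. Intervals overlapped in replicate 1 for Hoxa11 and in replicate 2 for Hoxd12. Hoxa10 went opposite ways, at 32.5% and 37.4%, and at 47.1% and 42.7%. Hoxd10 and Hoxc10 had smaller shares in positive cells in both libraries.

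Levels within a cluster put Hoxd13 beside cluster 3. There it was at 18.9 and 24.3 CPM in Hoxa13-positive cells and at 18.1 and 17.4 CPM in Hoxa13-negative cells. In cluster 0 it was at 4.08 CPM, from 1 UMI, and 0 CPM in positive and at 0.347 and 0.553 CPM in negative cells. Hoxd9 behaved otherwise in cluster 0, where positive cells were at 85.6 and 101.7 CPM and negative cells at 260.9 and 195.6 CPM, so that the Hoxa13-positive cells of that cluster also had less of it in both libraries. In the SMC-like cluster 2, with 2 and 5 positive cells and 5 Hoxd9 UMIs in each library's positive cells, the order was the reverse, at 532 and 58.1 CPM against 128.5 and 31.2 CPM. Itga4, at 8.16 and 37.5 CPM against 69.6 and 120.4 CPM in cluster 0, was lower in positive cells, as Hoxd9 was in that cluster. These values by cluster are descriptions without a test. Those of Hoxd9 and Itga4 leave out cluster 3, which held 73.0% and 67.2% of the positive cells.

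Outside the Hox genes, and among called genes whose log2 CPM averaged over 5, Sfrp1 (ENSMUSG00000031548, chromosome 8, 23411502 to 23449632, plus strand), a secreted antagonist of WNT, rose most. It was at 432 and 315 CPM in positive cells and at 91.8 and 74.9 CPM in negative cells (log2 fold change 2.22 ± 0.06, adjusted p = 2.17e-16). After thinning it was seen in 59.9% and 46.4% of positive and 12.3% and 11.2% of negative cells. The SI, at 583 and 438 CPM, was high again. Oat, a mitochondrial enzyme of ornithine metabolism, was at 255 and 253 CPM against 112 and 120 CPM (1.20 ± 0.07). Kit, the receptor tyrosine kinase of interstitial cell and germ cell precursors, was at 62.1 and 131 CPM against 35.3 and 67.9 CPM (1.00 ± 0.09), while Ano1 and Etv1, other genes of interstitial cells of Cajal, did not pass with 0.12 ± 0.13 and 0.22 ± 0.10.

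The other genes of the 10 largest rises above that level were Lgi2 (log2 fold change 1.43 ± 0.07), Cttnbp2, a cortactin-binding protein (1.34 ± 0.08), Cgnl1, a paralogue of the junction protein cingulin (1.04 ± 0.07), Efhd2, a calcium-binding actin regulator (1.00 ± 0.09), Spry1, a feedback inhibitor of FGF signalling (0.97 ± 0.09), Pde5a, which breaks down cyclic GMP (0.91 ± 0.08), and Rab28, a small GTPase (0.90 ± 0.08). All 10 were also called higher in thinned cells and against depth-matched cells. Sfrp1, Lgi2, Cttnbp2, Oat and Cgnl1 were at the same time leading genes of cluster 3. Against cells of the same cluster and depth none was called, and Sfrp1 had a log2 fold change of 0.17 there (adjusted p = 0.271).

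Of the 10 largest drops above the same level, 9 are given here, led by 2600014E21Rik, at 5.59 and 7.48 CPM against 45.7 and 51.5 CPM (log2 fold change -2.76 ± 0.17, adjusted p = 1.29e-10). Itga4, the α4 integrin chain, was at 1.86 and 11.1 CPM against 34.6 and 53.8 CPM (-2.43 ± 0.19), and the proteoglycan gene Lum at 3.11 and 15.4 CPM against 41.3 and 54.9 CPM (-2.03 ± 0.18). The others were Asb4 (-2.11 ± 0.14), the growth cone gene Gap43 (-2.06 ± 0.28), Stox2 (-1.89 ± 0.12), Htra1, a secreted protease (-1.81 ± 0.14), Enho (-1.70 ± 0.16) and Rspo3, a WNT-enhancing R-spondin (-1.69 ± 0.13). All 9 were called lower in thinned and in depth-matched cells, and 2600014E21Rik, Itga4 and Stox2 also against cells of the same cluster. Itga4, Lum, Rspo3 and Gap43 were at the same time leading genes of clusters other than cluster 3. Gap43 is a neural gene, and its level in positive cells was 25.5 CPM in replicate 1 and 3.17 CPM in replicate 2.

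**Figure D4:**
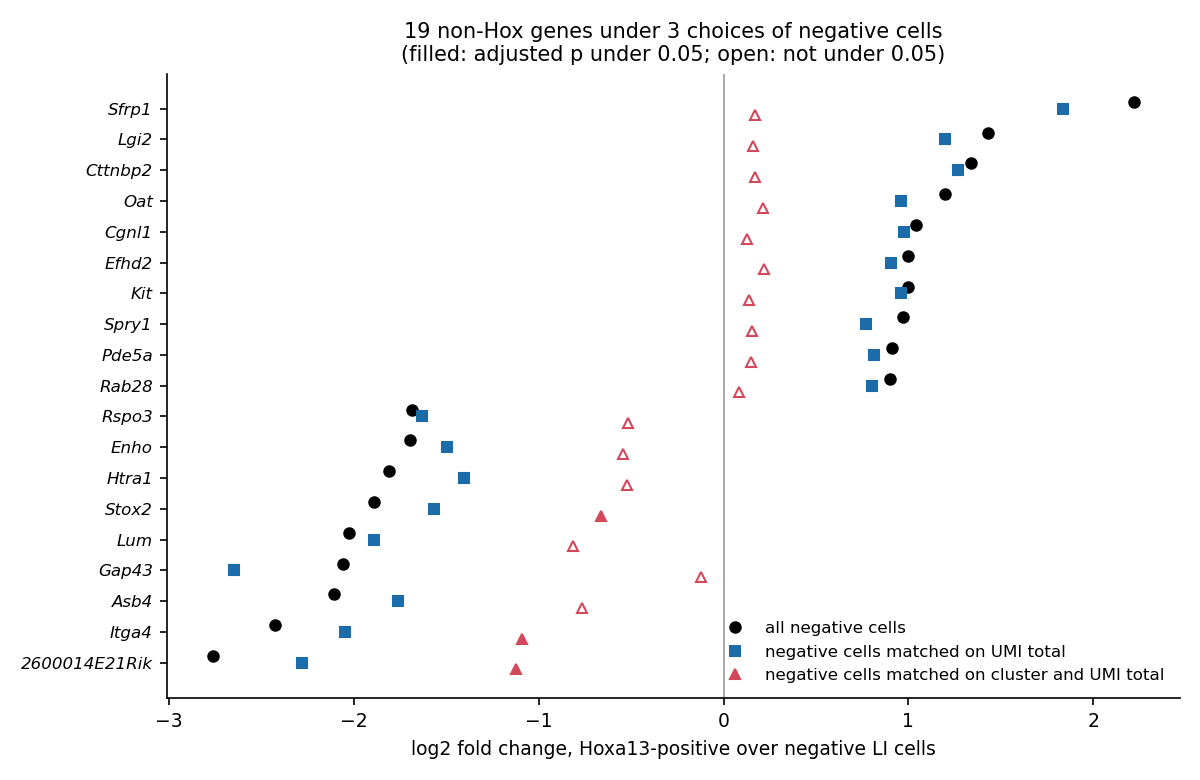
Log2 fold change (x axis) of 19 of the 20 called non-Hox genes with the largest differences among those with an average log2 CPM over 5 (y axis), Hoxa13-positive LI cells over all negative cells, over negative cells of matched UMI total, and over negative cells matched on cluster and UMI total. Filled symbols passed the test. Matching on depth left all 19 genes called, and matching on cluster as well left 3 of the lower genes called and moved Sfrp1 from 2.22 to 0.17.

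Other transcription factors of gut regions went in both directions. Of 34 that could be tested among 56, 11 were higher and 12 lower, with a median log2 fold change of -0.24. Tbx2, a repressor of the T-box family, was at 3.73 and 0.907 CPM against 13.1 and 15.2 CPM (-3.04 ± 0.36, adjusted p = 3.33e-06), and was not called in thinned cells (-2.80, adjusted p = 0.273) or against cells of the same cluster and depth (-1.06, adjusted p = 0.809). Pitx1, a homeobox gene known from hindlimb and cecum, was at 93.2 and 63.5 CPM in positive and 149 and 114 CPM in negative cells (-0.70 ± 0.08, adjusted p = 2.92e-06), but in thinned cells it was at -0.43 and not called (adjusted p = 0.274), and against cells of the same cluster at 0.20 (adjusted p = 0.787). The direction was the reverse, and called, with cells classed by Hoxd13 (0.56, adjusted p = 5.28e-06) and among SMC-like cells alone (5.27), where all 19 Pitx1 UMIs of positive cells lay in the 5 of replicate 2. It shares exon sequence with the annotated gene Gm28760. After thinning Pitx1 was seen in 18.7% (14.3 to 23.9) of Hoxa13-positive and 17.2% (16.1 to 18.3) of negative cells of replicate 1, and in 12.6% (9.30 to 16.9) and 14.4% (13.3 to 15.5) in replicate 2, so that the intervals overlapped in both libraries.

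Members of the list that were higher are named here after their values were seen. Six2, a homeobox gene of mesenchymal progenitors, was at 8.69 and 15.0 CPM against 1.95 and 3.71 CPM (log2 fold change 2.13 ± 0.26, adjusted p = 4.52e-06). Nkx3-2, known from stomach and spleen mesenchyme, was at 9.32 and 4.76 CPM against 2.88 and 1.41 CPM (1.79 ± 0.34, adjusted p = 0.000842), and Foxl1, a forkhead factor of subepithelial mesenchyme and a hedgehog target, at 7.45 and 8.84 CPM against 3.098 and 3.69 CPM (1.34 ± 0.28, adjusted p = 0.00191). Positive cells were higher in both libraries in each, at levels of few UMIs. Foxf1, Foxf2, Foxp1, Foxp2, Hand1, Twist1, Nr2f1 and Isl1 made up the other 8, between 0.29 and 0.83. Of the 11, only Twist1 was called in thinned cells (adjusted p = 0.0201), and Isl1 lost the call against depth-matched cells (0.42, adjusted p = 0.0545).

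TALE cofactors, which help Hox proteins bind DNA, differed by small amounts. Meis1 was lower at 195 and 214 CPM against 282 and 301 CPM (log2 fold change -0.43 ± 0.07, adjusted p = 7.64e-05) and Meis2 at 612 and 731 CPM against 800 and 1027 CPM (-0.37 ± 0.06, adjusted p = 0.00013), and both stayed called in thinned cells. Pbx3 was higher at 124 and 128 CPM against 106 and 105 CPM (0.34 ± 0.08, adjusted p = 0.00287), and at 0.40 in thinned cells without passing the test (adjusted p = 0.331). Over the 8 genes of this list tested, 1 was higher and 3 lower. The Cdx genes, Hox regulators of the hindgut, had 0 or 1 UMI in positive cells and were not tested.

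Genes that other work links to HOXA13 in limb and genital buds were mostly lower or did not pass. Of 7 tested, 5 were lower and 0 higher, with a median log2 fold change of -0.65. In thinned cells 1 of 7 was called, Efna3, and against cells of the same cluster and depth 0 of 5 in edgeR. Efna3, an ephrin ligand, was at 5.59 and 6.35 CPM against 13.5 and 17.9 CPM (-1.35 ± 0.22, adjusted p = 0.000137), and Bmp2 at 0.621 and 1.36 CPM against 2.21 and 5.49 CPM (-1.89 ± 0.48, adjusted p = 0.00915). Aldh1a2, which makes retinoic acid, was at 23.6 and 31.5 CPM against 26.3 and 59.1 CPM (-0.65 ± 0.13, adjusted p = 0.00154). It was among the leading genes of the SMC-like cluster, which held 0.794% and 1.71% of positive but 13.6% and 17.4% of negative cells, and without that cluster its log2 fold change was 0.17 and not called. In thinned cells Aldh1a2 was at -0.089 (adjusted p = 0.985). Bmp7 did not pass, with 0.52 ± 0.20 (adjusted p = 0.0797).

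Of 8 WNT ligands and R-spondins tested, 7 were lower and 0 higher, with a median log2 fold change of -1.59. Against depth-matched cells 7 of 8 were lower, in thinned cells 2 of 8, and against cells of the same cluster and depth 0 of 4 were called in edgeR. Beside Rspo3, Rspo1 was at 2.48 and 1.13 CPM against 9.38 and 13.1 CPM (-2.91 ± 0.37, adjusted p = 7.61e-06), and the noncanonical ligand Wnt5a at 124 and 252 CPM against 241 and 342 CPM (-0.54 ± 0.09, adjusted p = 0.000167). Rspo3 and Wnt5a were the 2 called in thinned cells. Rspo2 had 2 UMIs in positive cells, 11.95-fold less per UMI than in negative cells (counting interval 3.27 to 99.3), and Wnt11 had 1, 17.1-fold less (3.03 to 681). Of 9 WNT antagonists tested, Sfrp1 was the only gene that was higher, and Shisa3 (0 and 0.907 CPM against 3.89 and 2.94 CPM) and Shisa2 (1.86 and 6.12 CPM against 4.34 and 11.8 CPM) were lower (adjusted p = 0.0208 and 0.0309). Neither was called in thinned cells, Shisa3 lost the call against depth-matched cells (adjusted p = 0.0518), and Shisa2 among the unmarked clusters (adjusted p = 0.0994). Of the 8 WNT response genes tested 0 were called in edgeR, with 2 at an unadjusted p under 0.05, and 1 of 7 was lower against depth-matched cells.

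BMP ligands and antagonists were lower in 7 of 17 genes and higher in 0, with a median log2 fold change of -0.84. Fst, an antagonist of activin and BMP, was the most abundant, at 229 and 456 CPM against 584 and 974 CPM (-1.12 ± 0.07, adjusted p = 2.62e-10), and it also stayed called in thinned cells and against the same cluster (-0.36, adjusted p = 1.56e-06). Bmp4 was at 26.1 and 22.7 CPM against 43.7 and 46.3 CPM (-0.86 ± 0.12, adjusted p = 3.97e-05) and the antagonist Nog at 7.45 and 14.1 CPM against 17.7 and 31.1 CPM (-1.08 ± 0.16, adjusted p = 6.34e-05). In thinned cells 1 of 15 of these genes was called, and Bmp4 and Nog were at -1.21 and -1.65 (adjusted p = 0.0528 and 0.123). Of the BMP response genes, Id2 at 402 and 389 CPM against 531 and 559 CPM (-0.39 ± 0.06) and Id3 at 589 and 839 CPM against 678 and 1096 CPM (-0.23 ± 0.06) were lower, as was Msx1. Msx1 had 0 UMIs in all 545 positive cells and 105 in the negative cells, which makes it at least 3.59-fold lower against a floor of 3 UMIs over the group. Of the 7 tested, 3 were lower and 0 higher, and in thinned cells 1 was lower, while Id2 was at -0.27 (adjusted p = 0.095).

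Retinoic acid genes were lower in 8 of 13, with 0 higher and a median log2 fold change of -0.60, and the same counts held against depth-matched cells. The cellular retinoic acid carriers led. Crabp1 was at 11.2 and 5.44 CPM against 38.3 and 34.8 CPM (-2.26 ± 0.19, adjusted p = 2.06e-08) and Crabp2 at 9.94 and 20.9 CPM against 30.9 and 66.2 CPM (-1.57 ± 0.13, adjusted p = 2.03e-08), and these 2 were also called in thinned cells. The receptor gene Rarb, itself a target of retinoic acid, was at 7.45 and 9.98 CPM against 16.9 and 30.3 CPM (-1.43 ± 0.18, adjusted p = 6.84e-06). Cyp26b1, which degrades retinoic acid, did not pass with -0.10 ± 0.27, and Cyp26a1 was too rare to test with 0 UMIs in positive cells.

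Hedgehog and FGF genes were mixed. Among 11 hedgehog genes, Gli1 and Ptch1, targets of the pathway, were higher at 37.9 and 28.3 CPM against 24.3 and 19.6 CPM (log2 fold change 0.65 ± 0.13, adjusted p = 0.00103) and at 235 and 267 CPM against 188 and 253 CPM (0.25 ± 0.07, adjusted p = 0.0136). The coreceptor gene Gas1 was lower at 104 and 207 CPM against 211 and 397 CPM (-0.88 ± 0.07, adjusted p = 9.92e-09). Only Gas1 stayed called in thinned cells, where Gli1 and Ptch1 had log2 fold changes of 0.72 and 0.22. Among the unmarked clusters alone Ptch1 was at 0.18 and not called (adjusted p = 0.0816). Of 13 FGF pathway genes 3 were higher and 2 lower. Fgfr2 was at 77.0 and 104 CPM against 45.1 and 83.1 CPM (0.54 ± 0.09, adjusted p = 0.000266) and shares exon sequence with an annotated transcript of Ctbp2, while Spry2 was at 3.73 and 21.8 CPM against 10.9 and 38.2 CPM (-0.79 ± 0.16, adjusted p = 0.00105). In thinned cells 1 FGF gene was higher and 0 lower, and neither Fgfr2 (0.39, adjusted p = 0.619) nor Spry2 (-0.84, adjusted p = 0.634) was called.

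Signals that enteric neural progenitors read were lower in 3 of 10 genes tested and higher in 0, beside 7.18% lower over all genes. Edn3, the endothelin that keeps progenitors dividing in the hindgut, was at 76.4 and 64.2 CPM against 108 and 87.8 CPM (log2 fold change -0.39 ± 0.09, adjusted p = 0.0025), but lost the call against depth-matched cells (-0.19, adjusted p = 0.169). The guidance gene Ntn1 was at 3.73 and 8.61 CPM against 10.8 and 19.7 CPM (-1.17 ± 0.21) and Gfra1, the GDNF coreceptor, at 10.6 and 8.84 CPM against 18.8 and 32.4 CPM (-1.52 ± 0.19). None was called in thinned cells, and against depth-matched cells 2 of the 10 were higher and 2 lower.

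Of 10 genes of fibroblasts tested, 5 were lower and 1 higher, with a median log2 fold change of -0.33, and 0 of 10 were called against cells of the same cluster and depth in edgeR. Col1a2 was at 32.9 and 71.2 CPM against 108 and 204 CPM (log2 fold change -1.48 ± 0.09, adjusted p = 1.29e-10) and the proteoglycan gene Dcn at 3.11 and 9.75 CPM against 32.1 and 42.4 CPM (-2.24 ± 0.19, adjusted p = 2.01e-08). Lum, Fbn2 and Tcf21 were the others that were lower, 4 of the 5 also in thinned cells, and Vcan was higher (0.27 ± 0.07). Col1a1 and Col3a1 did not pass, with 0.02 ± 0.07 and -0.11 ± 0.06. Of 15 matrix and adhesion genes 3 were lower and 0 higher, beside 7.18% lower over all genes. The 3 were Itga4, Col12a1 at 3.11 and 9.98 CPM against 18.1 and 37.2 CPM (-1.90 ± 0.18) and Cdh2 at 41.6 and 60.1 CPM against 69.6 and 77.2 CPM (-0.39 ± 0.10). In thinned cells Itga4 alone of 14 was called, with Col12a1 at -1.74 and Cdh2 at -0.69 (adjusted p = 0.0756 and 0.225).

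Smooth muscle genes split. Des was at 51.5 and 39.0 CPM against 112 and 93.2 CPM (log2 fold change -1.13 ± 0.09, adjusted p = 2.21e-08), Myh11 at 1.24 and 16.8 CPM against 5.22 and 52.5 CPM (-1.57 ± 0.16, adjusted p = 3.35e-07) and Mylk at 31.7 and 97.9 CPM against 40.1 and 150 CPM (-0.48 ± 0.09, adjusted p = 0.000632). Myocd, the master coactivator of smooth muscle genes, and Synpo2 were higher by 0.39 ± 0.09 and 0.38 ± 0.08, and Acta2 did not pass with -0.15 ± 0.06. Of 12 genes 4 were lower and 2 higher. Mylk and Myh11 mark the SMC-like cluster, and without that cluster Mylk was at 0.04 and not called. Among the unmarked clusters alone Myh11 and Des were still lower, at -0.88 and -1.25 (adjusted p = 0.00493 and 2.02e-06), and in thinned cells Des was called at -0.91 and Myh11 was not, at -0.97 (adjusted p = 0.581).

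Imprinted and insulin-like growth factor genes were lower in 9 of 15, with 0 higher and a median log2 fold change of -0.34. Peg3, a paternally expressed zinc finger gene, was at 132 and 122 CPM against 369 and 401 CPM (-1.56 ± 0.07, adjusted p = 3.18e-12). Igfbp5 was at 187 and 270 CPM against 375 and 599 CPM (-1.02 ± 0.07, adjusted p = 3.32e-10) and Cdkn1c, an inhibitor of the cell cycle, at 488 and 666 CPM against 842 and 1072 CPM (-0.66 ± 0.06, adjusted p = 1.22e-07). These 3 stayed called in thinned cells, against depth-matched cells and against cells of the same cluster (adjusted p = 0.00302, 0.0063 and 0.0479). H19 and Dlk1 did not pass, with 0.04 ± 0.07 and 0.02 ± 0.09.

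Cell cycle genes were higher in positive cells, which were also the deeper cells. All 15 mitosis genes tested were higher in positive cells, with a median log2 fold change of 0.59, for example Top2a at 671 and 604 CPM against 532 and 397 CPM (0.55 ± 0.07, adjusted p = 5.46e-06), Aurkb at 57.8 and 111 CPM against 41.8 and 63.7 CPM (0.79 ± 0.09, adjusted p = 3.37e-06) and Bub1 at 85.1 and 96.6 CPM against 63.6 and 54.9 CPM (0.75 ± 0.10, adjusted p = 8.73e-06). Of 15 S phase genes 10 were higher, led by Tyms (0.48 ± 0.07), Rrm2 (0.42 ± 0.07) and Slbp (0.35 ± 0.06). Against negative cells of matched depth 2 mitosis genes were higher and 1 lower, with a median of 0.05, and 2 S phase genes were higher, with a median of 0.11. Top2a was at 0.05 there. Against negative cells matched on cluster as well as depth, 5 of 15 mitosis genes were higher and 0 lower, with a median of 0.23 and all 15 above 0, while 0 of 15 S phase genes were called in edgeR, with a median of -0.011. In thinned cells 2 mitosis genes were higher, among them Top2a (0.44, adjusted p = 0.000294), and 0 S phase genes. The counts thus differed between the controls for depth, and the part of depth was not tested further.

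The phases assigned to single cells had the same order. With counts thinned to 3000 UMIs, 30.6% (25.2 to 36.5) of positive and 47.4% (45.9 to 48.8) of negative cells of replicate 1 fell in G1, and 37.9% (32.5 to 43.6) and 63.2% (61.6 to 64.7) in replicate 2. Negative cells matched on UMI total were at 31.7% (29.2 to 34.4) and 41.7% (39.2 to 44.2), and their intervals overlap those of the positive cells in both libraries. Shares in G2/M followed, at 39.7% and 37.5% of positive, 27.4% and 20.9% of all negative and 40.6% and 35.6% of depth-matched negative cells. The phases rest on genes that free RNA can also add to, which was not tested.

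**Figure D5:**
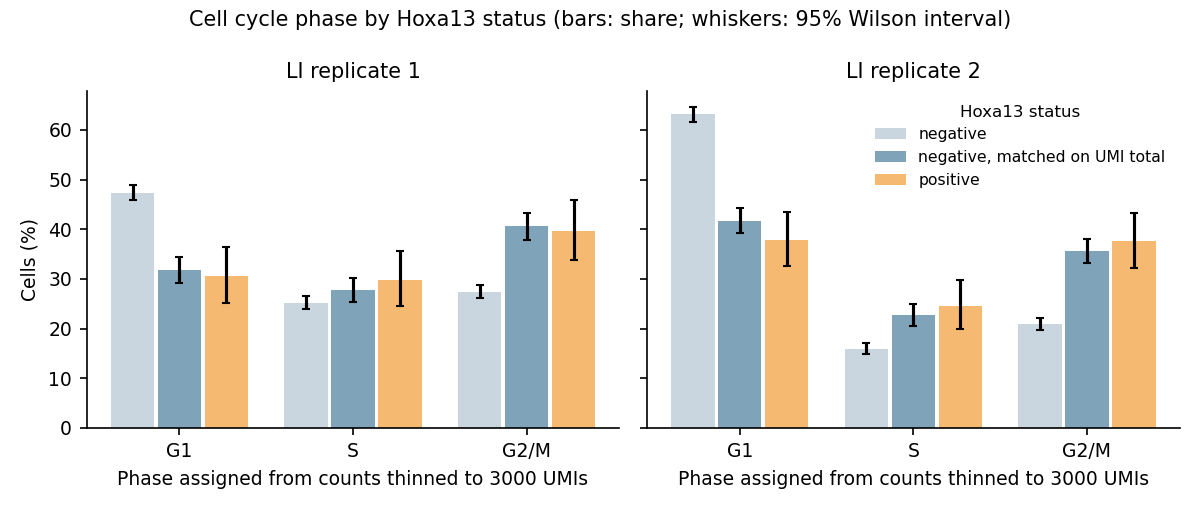
Share of cells (y axis, %) assigned to G1, S and G2/M (x axis) from thinned counts, for all Hoxa13-negative cells, negative cells matched on UMI total and Hoxa13-positive cells of each LI library, with 95% Wilson intervals. Positive cells lie below all negative cells in G1, at 30.6% against 47.4% and 37.9% against 63.2%, and near the depth-matched negative cells, at 31.7% and 41.7%.

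Stress response genes, which rise with tissue dissociation, were lower in 4 of 12 and higher in 0, beside 7.18% lower over all genes. Jun was at 990 and 1095 CPM against 1393 and 1504 CPM (log2 fold change -0.40 ± 0.06), Fosb at 248 and 240 CPM against 331 and 348 CPM (-0.41 ± 0.06) and Dusp1 at 54.6 and 62.6 CPM against 89.7 and 114 CPM (-0.73 ± 0.09). Mitochondrial shares were alike, with medians of 2.99% and 4.01% in positive and 3.20% and 4.18% in negative cells.

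Markers of other cell types were read as well. Of 8 neural markers tested 7 were lower in positive cells, and 1 of 8 in thinned cells. The 10 genes of the list summed to 83.8 and 28.8 CPM in positive and 149.6 and 188.6 CPM in negative cells, with Sox10 and Prph at 0 by the rule. Elavl4 was at 9.94 and 5.44 CPM against 20.3 and 34.9 CPM (log2 fold change -2.10 ± 0.23), Fabp7 at 1.86 and 2.95 CPM against 4.34 and 16.8 CPM (-2.23 ± 0.31) and Ednrb at 13.7 and 14.1 CPM against 25.6 and 33.9 CPM (-1.09 ± 0.15). A neural-like cluster held 1.19% and 0% of positive and 2.32% and 1.53% of negative cells. Without it and the mesothelial-like cluster 1477 genes were higher and 1189 lower, and of Hox groups 5 to 8 9 of 11 were lower. Of 6 neural markers tested in that comparison 3 were lower, with a median log2 fold change of -0.84 in place of -2.17, and Elavl4 was at -0.83.

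Of 4 markers of interstitial cells of Cajal 1 was higher (Kit) and 0 lower. The remaining lists held few transcripts, and their members called in the main comparison were lower. These were 1 of 5 mesothelial, 2 of 5 pericyte, 1 of 5 endothelial, 1 of 2 skeletal muscle and cartilage and 1 of 1 nephric genes tested. Over all genes 7.18% were lower, so that 1 call in a list this short is no result about the list. Mesothelial markers summed to 27.3 and 7.25 CPM against 34.3 and 25.7 CPM, with Wt1 lower at 11.2 and 4.08 CPM against 17.4 and 18.5 CPM (log2 fold change -1.50 ± 0.25). Of pericyte markers Cspg4 at 0.621 and 6.80 CPM against 9.07 and 13.6 CPM (-1.22 ± 0.29) and Kcnj8 at 0 and 1.36 CPM against 3.85 and 4.07 CPM (-1.94 ± 0.55) were lower. In thinned cells 0 mesothelial and 0 pericyte markers were called in edgeR, with Wt1 at -0.31 (adjusted p = 0.957) and Cspg4 at -1.83 (adjusted p = 0.505). Immune markers summed to at most 1.46 CPM, and erythroid markers to at most 6.83 CPM, with 0 of 1 tested called, and 0 of 3 germ cell genes were called. Epithelial markers summed to 127 and 48.7 CPM in positive and 118 and 50.7 CPM in negative cells, with 0 of 3 tested called, though 2 of 3 were higher against depth-matched cells. The endothelial gene Cldn5 had 0 UMIs in positive cells and was at least 2.02-fold lower against a floor of 3 UMIs, and Gata3, a nephric gene, had 2 UMIs, 7.85-fold less per UMI (counting interval 2.14 to 65.4). Sox9 was at 5.59 and 9.98 CPM against 14.2 and 16.0 CPM (-0.75 ± 0.21). Skeletal muscle, cartilage, germ cell and nephric lists summed to at most 17.4 CPM in any LI sum. How far any of these cells had a part in the differences above was tested only by leaving out clusters.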

How the data were processed

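Single-cell libraries of sorted E12.5 gut stroma were sequenced by the authors with a 3′ or 5′ droplet kit. The deposited values were raw UMI counts per gene and barcode, which the authors made with Cell Ranger 3.1.0 on mm10. The submitters' processing notes also name Seurat 3. Nothing else was done to the counts before deposit as far as the sources used here state. Of 28692 gene identifiers 28339 matched GENCODE vM21, from which positions were taken, and 58 symbols were listed more than once.

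LI cells were classed by Hoxa13 UMIs, and the counts of each class were added up within each library. The 4 sums (library totals of 24204244 and 40495283 UMIs over kept LI cells, 44703262 and 54992319 over SI cells) were compared with edgeR 4.0.16 in R 4.3.3 (TMM, filterByExpr, quasi-likelihood F test, library as block, Benjamini-Hochberg adjustment over all genes tested, call at adjusted p under 0.05). Standard errors were derived from each gene's log2 fold change and its F value. The pairing comes from the design, since both sums of a library come from the same suspension. The libraries come from 2 independent experiments, and p-values rest on those 2.

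Members, gene lists and the rule for named genes were chosen with earlier results of these data known. The rule named all Hox genes of groups 9 to 13, the 10 largest called non-Hox changes in each direction with an average log2 CPM over 5 and 1 direction in both libraries, and up to 3 called genes of smallest p per list. LI cells were clustered with Seurat 5.3.0 on 1843 genes (30 principal components, resolution 0.3), and the rule that named clusters from their markers was set after the clusters had been seen. Doublets were kept, and removed as an alternative by a score cut, since the automatic call marked 2 and 6 barcodes. Alternatives were DESeq2 1.42.0, other scaling, no filter, no block, thinning, other classings, matched negative cells and left-out libraries, clusters or doublets. The 3 chosen after seeing the data were negative cells matched on UMI total, the unmarked clusters alone, and neural-like and mesothelial-like clusters left out. On simulated data 100% of 200 genes changed by log2 folds of 1 or 2 were recovered among 12844 genes, with 11 false calls. The simulation gave every gene the fit's common dispersion of 0.00154 and changed only genes with an average log2 CPM over 5. It held no difference between libraries in the effect of status, so that it does not cover rarer genes or a wider spread. Results that need 2 withheld genes are not reported here, although list counts and clusters were computed with all genes.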

Additional observations from a re-analysis of the deposited data

How the results depend on the processing

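The main comparison called 2065 genes. In all, 2213 to 2700 were called with size factors, no count filter, SMC-like clusters out, doublets removed, no UMI minimum, Upk3b, Sox10 and Prph cells kept, unmarked clusters alone, or neural-like and mesothelial-like clusters out, 1482 against depth-matched and 1388 with cells classed by Hoxd13. Fewer were called by DESeq2 (592), in thinned cells (231), with 2 or more Hoxa13 UMIs (967), in G1 cells (580), against cells of the same cluster and depth (41) and in SMC-like clusters (2 with 7 positive cells, Hoxd11 and Pitx1, both called in the opposite direction). Leaving out 1 LI library gave 26 to 145. Without the block that pairs the sums of a library 0 were called. Of the 8 Hox genes of groups 10 to 13 tested, 6 were called, against 3 by DESeq2, 3 in thinned cells, 0 against the same cluster, 5 among the unmarked clusters, 7 without neural-like and mesothelial-like clusters, 1 of 4 tested in SMC-like clusters (in the opposite direction), 0 without the block or pairing and 0 to 1 without a library. The mean share of Hoxa13-positive LI cells was 6.25% ± 1.31 (SD, n = 2), 2.45% after thinning and 1.39% with 2 or more UMIs, and 5.32% to 7.18% in a single library.

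Log2 fold changes took the opposite sign in SMC-like clusters for Sfrp1 (-0.062), Spry1 (-0.18), Gli1 (-0.21), Pde5a (-0.29), Fgfr2 (-0.30), Rrm2 (-0.32), Pbx3 (-0.50), Tyms (-0.57), Top2a (-0.67), Ptch1 (-0.83), Slbp (-1.27), Cspg4 (0.11), Hoxc6 (0.13), Fst (0.15), Hoxd4 (0.15), Tbx2 (0.22), Peg3 (0.26), Col1a2 (0.80), Hoxd9 (0.86), Nog (0.88), Hoxa3 (0.93), Htra1 (0.94), Hoxc10 (1.13), Hoxc4 (1.47), Hoxd10 (1.75), Hoxd11 (4.49) and Pitx1 (5.27). Against cells of the same cluster and depth they did for Tyms (-0.011), Rrm2 (-0.039), Hoxd12 (-0.27), Sox9 (0.11), Mylk (0.18), Pitx1 (0.20), Elavl4 (0.41) and Ednrb (0.75). With cells classed by Hoxd13 they did for Ptch1 (-0.0071), Hoxa11 (-0.23) and Pitx1 (0.56, called higher), without SMC-like clusters for Mylk (0.043) and Aldh1a2 (0.17), among the unmarked clusters for Aldh1a2 (0.21) and in G1 cells for Hoxd11 (0.17). The causes were not tested. Depth limits rare transcripts, since 3 UMIs over the positive cells stand for 0.498 CPM.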
